A study of Homo sapiens with 6 samples.

Results

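Metallothioneins and the genes that move zinc across membranes were measured by RNA-seq in a human lung squamous cell carcinoma (LUSC) line after loss of MLST8. The genes were chosen by symbol, with earlier results of these data known. Of 10 genes named, 9 had a row among the 17448 genes listed and 8 passed the filter on low counts, which left 12951 genes tested. MT1E was not analysed here. MT1F, MT1G, MT1X and MT2A are metallothioneins, MTF1 is the zinc-sensing transcription factor, SLC30A1 and SLC30A5 move zinc out of the cytosol, and SLC39A10 and SLC39A14 move it in.

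All 6 libraries came from HCC2814, a LUSC line grown in DMEM with 10% serum. WT cells received a non-targeting control guide and MLST8-KO cells a guide against MLST8, a subunit of both mTOR complexes (mTORC1 and mTORC2). The study reports that MLST8 loss in this line disrupted mTORC2, and that phosphorylation of an mTORC1 substrate was unaffected. The labels give 48 to 72 hours with the guides before antibiotic selection, while the study's methods give a shorter infection with virus. There were 3 libraries in each group. The series' description calls them biological replicates of separate experiments. Guides were delivered with lentiCRISPR v2, so both groups carried Cas9 and the drug resistance marker. A blot legend in the study numbers sgControl and sgMLST8 1 to 3 for this line, without tying those numbers to the libraries. No source used here says whether the HCC2814 lines were single clones. Nor does any say whether the library numbers 1 to 3 stand for different guides.

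Metallothioneins are small, cysteine-rich proteins that bind zinc, copper and cadmium in the cytosol. When free zinc rises, MTF1 enters the nucleus, binds metal response elements and switches on the metallothionein genes and SLC30A1, which exports zinc across the plasma membrane. Glucocorticoids also induce MT2A, and the genes are commonly read as gauges of metal load and stress in epithelial cells.

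Depth was even, with 14381673 to 15744154 estimated counts per library. MLST8 itself was at 874, 827 and 842 estimated counts in the WT libraries and 396, 629 and 401 in the MLST8-KO libraries, a log2 fold change of -0.96 (SE 0.15) with an adjusted p of 0.00339 by edgeR's quasi-likelihood test. Its exons overlap those of BRICD5 on the other strand. Squamous markers were abundant, and their summed level, 14610 to 21995 CPM (counts scaled to a common library size) in WT and 25014 to 28103 CPM in MLST8-KO, was lowest in WT replicate 3. In that list 8 of 10 markers were called higher in MLST8-KO. Of 15 liver markers 3 passed the filter, all called higher, and the summed list was at 286 CPM in MLST8-KO replicate 1 and at 1.01 to 7.96 CPM elsewhere, while blood and immune markers summed to 1.11 to 1.92 CPM with PTPRC at 0 in 5 libraries and fibroblast and endothelium markers to 34.6 to 39.2 CPM. Adenocarcinoma or alveolar markers summed to 2.09 to 4.05 CPM in WT and 8.96 to 10.8 CPM in MLST8-KO, and the marker of that list that passed the filter, NKX2-1, was called higher. The squamous and the adenocarcinoma or alveolar sums move with the groups and the liver sum with 1 library, and their part in the results below was not tested.

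Sequence is shown first for the promoters, because MTF1 acts through them. The metal response element core was searched as TGCACNC or TGCGCNC on both strands in the 250 bases before each start in RefSeq (GRCh38.p14). The windows of 6 members were used, and the other members were not searched. No matches overlapped each other. MT2A held 7 matches, MT1X 4 and SLC30A1 1, and the letters were not in the windows of MTF1, SLC30A5 or SLC39A10. Of 35116 windows of the same length, 0.0313% held at least 7 matches, 0.37% at least 4 and 24.8% at least 1. A match is a string of letters and no evidence of binding. RefSeq and GENCODE starts differ for some members. The SLC30A5 window (chr5:69093764-69094013) and the SLC39A10 windows (from chr2:195656708 on) lie inside their GENCODE genes. The SLC30A1 window does not reach that gene's GENCODE start at chr1:211578742. These counts are therefore of the windows searched and not of every promoter of a gene. The MT1X stretch lies at chr16:56682220-56682423 on the plus strand and the SLC30A1 stretch at chr1:211579162-211579411 on the minus strand. Both are written 5′ to 3′ along the gene, with the matches to the core in capitals, so that a match on the other strand reads as its reverse complement.
MT1X: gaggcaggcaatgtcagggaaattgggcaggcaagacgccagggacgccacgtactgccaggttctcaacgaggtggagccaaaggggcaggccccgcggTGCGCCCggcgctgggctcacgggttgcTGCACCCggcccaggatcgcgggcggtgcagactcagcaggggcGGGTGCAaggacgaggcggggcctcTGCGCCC
SLC30A1: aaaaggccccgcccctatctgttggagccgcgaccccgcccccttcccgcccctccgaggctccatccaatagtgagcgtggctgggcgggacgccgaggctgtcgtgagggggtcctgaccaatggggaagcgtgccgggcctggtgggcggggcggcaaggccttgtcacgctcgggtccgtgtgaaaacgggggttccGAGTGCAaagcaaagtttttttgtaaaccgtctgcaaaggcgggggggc

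The MT2A window, chr16:56608334-56608583 on the plus strand, lies within a longer transcript in GENCODE, so each match is shown alone, in capitals, with up to 3 bases on either side along the gene. The distance is from the first base of the match to the RefSeq start. Among the 6 members whose windows were used, no other held as many.
MT2A, 246 bases before the start: cgcTGCACCCagc
MT2A, 168 bases before the start: cccGTGTGCAgag
MT2A, 153 bases before the start: gggTGCGCCCggc
MT2A, 139 bases before the start: cagTGCGCGCggc
MT2A, 88 bases before the start: ggcGTGTGCAggc
MT2A, 54 bases before the start: tttTGCACTCgtc
MT2A, 8 bases before the start: cgcTGCACTCc

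In MLST8-KO cells 6 of the 8 members tested were lower than in WT, where 15.7% of all genes tested were called lower. They were MT2A, MT1X, MTF1, SLC30A1, SLC30A5 and SLC39A10. By edgeR's quasi-likelihood test 0 members were called higher, against 16.3% of all genes, and the number was also 0 at an unadjusted p under 0.05 and with DESeq2 or limma. The median log2 fold change over the 8 members was -0.67, and over all genes tested it was 0.0045. For the same 6 genes every MLST8-KO library lay below every WT library in CPM, a pattern that 24.2% of all genes showed. Because the members were chosen with earlier results of these data known, these comparisons with all genes are description only. In these bulk libraries, fewer cells with a transcript and less of it in each cell cannot be told apart.

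**Figure D1:**
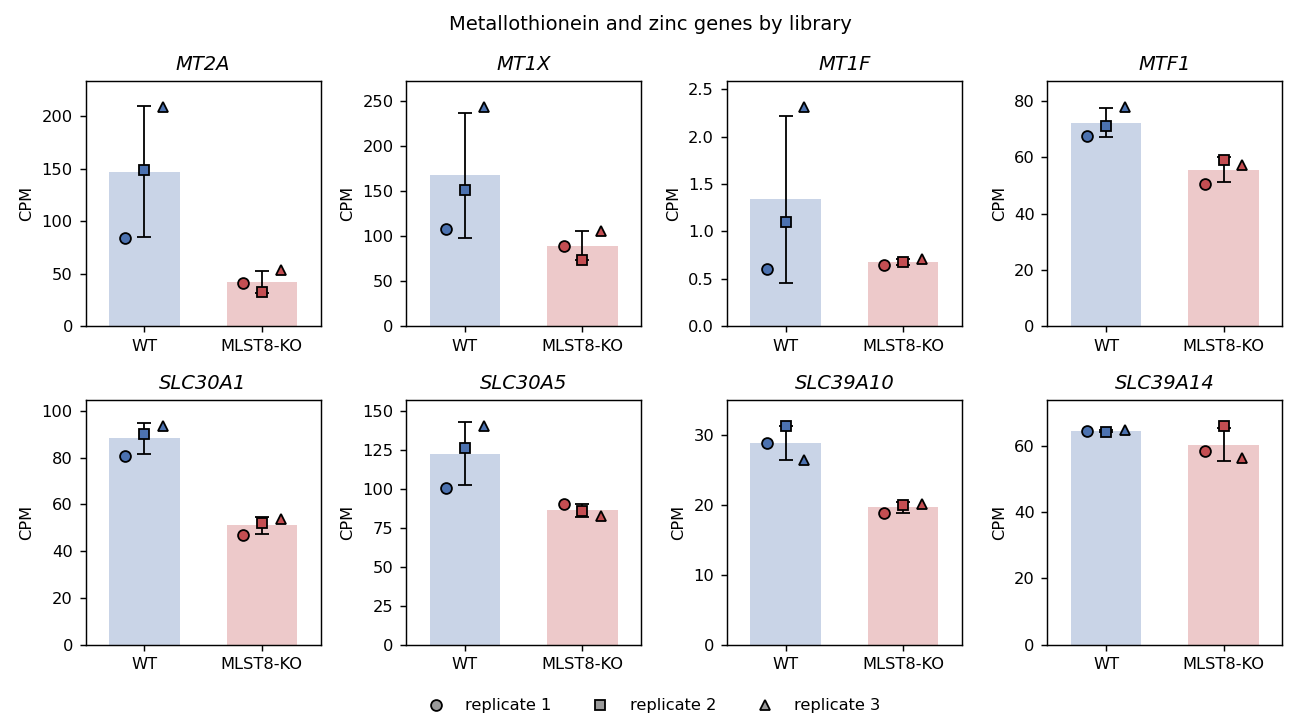
CPM (y axis, from 0) of the 8 members tested in WT and MLST8-KO libraries. Bars give the mean, error lines the SD and symbols the 3 replicates of each group. MT2A spans 84.0 to 209 CPM in WT and 32.4 to 53.2 CPM in MLST8-KO, while SLC39A14 overlaps between the groups.

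MT2A (Entrez 4502), the most widely expressed human metallothionein gene, had the largest difference among the members. In replicate order 1, 2 and 3, it had 1266, 2159 and 2890 estimated counts in WT and 641, 524 and 831 in MLST8-KO. Every MLST8-KO library was lower than the lowest WT library, although the WT libraries themselves differed 2.48-fold from lowest to highest. The mean fell from 147 ± 62.3 CPM (SD, n = 3) to 42.3 ± 10.5 CPM (SD, n = 3), and so dropped by 71.2%. On the log2 scale MT2A fell by 1.80 (SE 0.28, 95% interval of the fold change -2.43 to -1.17), and edgeR's quasi-likelihood test gave an adjusted p of 0.00346. The call held in all 15 alternatives, with log2 fold changes of -2.08 to -1.46.

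MT1X (Entrez 4501), the most abundant of the 5 metallothionein genes listed, fell by less. Its estimated counts were 1615, 2196 and 3364 in WT and 1383, 1183 and 1645 in MLST8-KO. In CPM the groups barely parted, with MLST8-KO replicate 3 at 105 CPM and WT replicate 1 at 107 CPM. The means were 167 ± 69.2 CPM in WT and 89.2 ± 16.1 CPM in MLST8-KO (SD, n = 3 each). MT1X had a log2 fold change of -0.90 (SE 0.25, 95% interval -1.45 to -0.36), and edgeR's adjusted p was 0.0204. In a fit that left out WT replicate 3, which had the most MT1X and the lowest squamous marker sum, the value was -0.54 and edgeR's adjusted p 0.0193. The call was lost with DESeq2 (adjusted p 0.0537), without MLST8-KO replicate 1 (edgeR's adjusted p 0.0665) and without MLST8-KO replicate 2 (edgeR's adjusted p 0.0900). Exons of MT1X overlap AC026461.1 on the same strand in GENCODE 29. If the authors' reference also held that gene, which was not checked, reads of the pair may have been divided between them.

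MT1F (Entrez 4494) was near the bottom of the measurable range. It had 9, 16 and 32 estimated counts in WT and 10, 11 and 11 in MLST8-KO. The groups overlapped, since WT replicate 1 was the lowest of the 6 libraries at 0.597 CPM and WT replicate 3 the highest at 2.31 CPM. Its log2 fold change of -0.96 (SE 0.47, 95% interval reaching up to 0.09) did not pass the threshold, with an adjusted p of 0.141 by edgeR's quasi-likelihood test. Leaving out WT replicate 3 brought it to -0.32 (edgeR's adjusted p 0.628), and leaving out WT replicate 1 brought it to -1.32, past the threshold (edgeR's adjusted p 0.0204). MT1G (Entrez 4495) had 1 estimated count in MLST8-KO replicate 1 and 0 in the other 5 libraries, and a count of 0 allows up to 3 counts, 0.191 to 0.209 CPM at these depths. It was too low to test.

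Metallothionein genes are close copies of each other, so the sum over the 5 family genes listed was also taken, which does not depend on how reads were divided among those 5. Reads shared with family members not analysed here, or with AC026461.1 if the authors counted it, could still change it. The sum was 192, 301 and 454 CPM in WT and 131, 106 and 159 CPM in MLST8-KO. The highest MLST8-KO library lay below the lowest WT library. Group means were 315 ± 132 and 132 ± 26.5 CPM (SD, n = 3 each), a 2.39-fold difference and a log2 ratio of -1.25, which was -0.90 without WT replicate 3. MT2A and MT1X made up at least 99.3% of the sum in each library. These 4 metallothionein genes sit within 76.0 kb of chromosome 16 in GENCODE 29 (GRCh38), with MT2A at chr16:56608199-56609497, MT1F at chr16:56657694-56660698, MT1G at chr16:56666731-56668065 and MT1X at chr16:56682424-56684196. MT1G is on the minus strand and the others are on the plus strand.

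MT2A and MT1X, both in that cluster, were also compared within each library. On the TPM scale, which corrects for transcript length, MT2A was at 536, 876 and 1216 TPM in WT and 258, 219 and 343 TPM in MLST8-KO. MT1X was at 822, 1053 and 1684 TPM in WT and 656, 591 and 812 TPM in MLST8-KO. The ratio of MT2A to MT1X within a library was 0.652, 0.832 and 0.722 in WT and 0.393, 0.371 and 0.422 in MLST8-KO. The groups did not overlap, and the mean was 0.735 ± 0.0906 against 0.395 ± 0.0258 (SD, n = 3 each). The ratio was chosen after its values were seen. An exact permutation test (two-sided) gave p = 0.1, the smallest value that 3 libraries against 3 allow. The log2 difference of the ratio was -0.89, and it ranged from -0.97 to -0.80 when single libraries were left out.

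**Figure D2:**
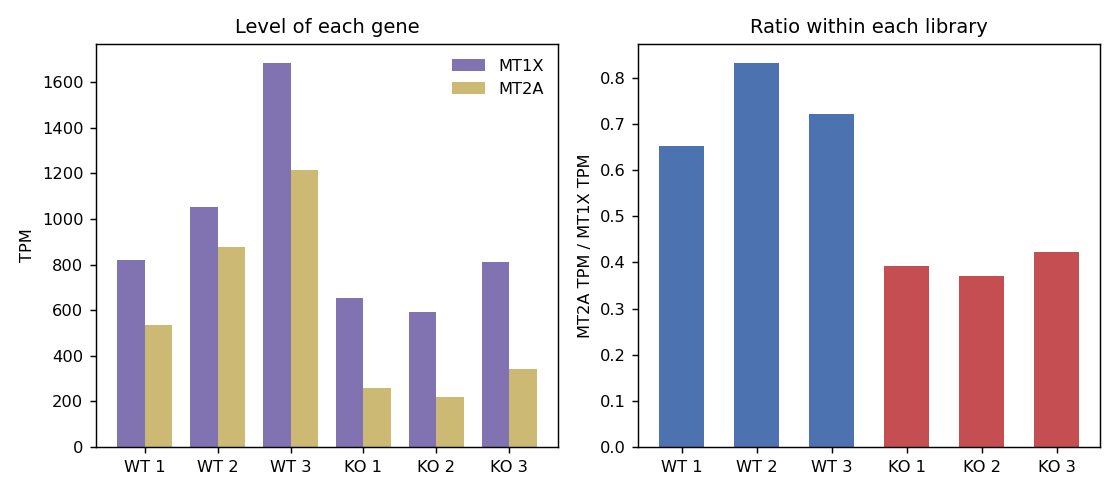
MT1X and MT2A levels in TPM (left, y axis from 0) and the ratio of MT2A to MT1X (right, y axis from 0) in each library, where KO stands for MLST8-KO. The ratio is 0.652 to 0.832 in the WT libraries and 0.371 to 0.422 in the MLST8-KO libraries.

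MTF1 (Entrez 4520), the transcription factor that reads zinc and activates these genes, was modestly lower. Its estimated counts were 1019, 1035 and 1078 in WT and 784, 956 and 895 in MLST8-KO. The lowest WT library, at 67.6 CPM, stood above the highest MLST8-KO library, at 59.1 CPM. Means were 72.2 ± 5.16 and 55.6 ± 4.47 CPM (SD, n = 3 each). By edgeR's quasi-likelihood test this was a log2 fold change of -0.38 (SE 0.09, 95% interval -0.58 to -0.17) at an adjusted p of 0.0134. Without MLST8-KO replicate 1, the library with liver transcripts, it was -0.31 and edgeR's adjusted p was 0.0689. With limma on log2(TPM + 1) the adjusted p was 0.0652. MTF1 lies on the minus strand at chr1:37809567-37859620. These values are of the mRNA and say nothing of where the protein was.

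SLC30A1 (Entrez 7779), the plasma membrane zinc exporter and an MTF1 target, was lower with little spread in either group. It had 1220, 1312 and 1299 estimated counts in WT and 730, 845 and 840 in MLST8-KO. Each group was tight, the WT libraries differing 1.16-fold from lowest to highest, and the groups were far apart. The mean fell from 88.3 ± 6.63 to 51.0 ± 3.50 CPM (SD, n = 3 each), and so dropped by 42.2%. The log2 fold change of SLC30A1 was -0.79 (SE 0.09, 95% interval -0.99 to -0.59), with edgeR's adjusted p at 0.00281, and it stayed between -0.85 and -0.67 and past the threshold in all 15 alternatives. The gene lies on the minus strand at chr1:211571568-211578742.

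SLC30A5 (Entrez 64924), which loads zinc into the early secretory pathway, was also lower. Estimated counts were 1519, 1834 and 1948 in WT and 1402, 1389 and 1288 in MLST8-KO. WT replicate 1, at 101 CPM, was the closest to the MLST8-KO libraries, which reached 90.4 CPM. Means were 123 ± 20.2 and 86.2 ± 4.01 CPM (SD, n = 3 each). SLC30A5 fell by 0.51 on the log2 scale (SE 0.12, 95% interval of the fold change -0.76 to -0.25), and edgeR's adjusted p was 0.0104. It passed the threshold in all 15 alternatives, with a highest adjusted p of 0.0466. The gene spans chr5:69093646-69131069 on the plus strand, where its exons overlap AC010273.1 on the other strand.

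SLC39A10 (Entrez 57181), a plasma membrane zinc importer, was lower too. Its estimated counts were 435, 455 and 366 in WT and 291, 323 and 315 in MLST8-KO. Here WT replicate 3 was the lowest WT library, the reverse of its place for the metallothioneins, and still stood above all 3 MLST8-KO libraries. The mean fell from 28.9 ± 2.46 to 19.6 ± 0.751 CPM (SD, n = 3 each). EdgeR gave SLC39A10 a log2 fold change of -0.56 (SE 0.10, 95% interval -0.78 to -0.33) and an adjusted p of 0.00504. It lies at chr2:195575977-195737702 on the plus strand.

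SLC39A14 (Entrez 23516), which imports zinc, iron and manganese, did not pass the threshold. Its estimated counts were 972, 935 and 900 in WT and 908, 1071 and 883 in MLST8-KO. The groups overlapped, with MLST8-KO replicate 2 the highest of all 6 libraries in CPM. The log2 fold change was -0.10 (SE 0.08, 95% interval -0.28 to 0.09) and edgeR's adjusted p was 0.399, so a fall of more than 0.28 on the log2 scale lay outside the interval. With limma on TPM the sign turned, to 0.0094 on the log2 scale. The gene lies at chr8:22367249-22434129 on the plus strand. Its promoter was not among those searched for the metal response element core.

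WT replicate 3 was the highest of the 6 libraries for 6 of the 8 members tested, and for 30.2% of all genes tested. The exceptions were SLC39A10 and SLC39A14. Spread within WT was widest for MT1F, MT2A and MT1X.

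Ordered by mean TPM in WT, the members ran MT1X, MT2A, SLC30A1, SLC30A5, SLC39A14, MTF1, SLC39A10, MT1F and MT1G. In WT the neighbours MT1X and MT2A overlapped, as did SLC30A1 (78.3 to 87.4 TPM) and SLC30A5 (67.7 to 92.0 TPM), and SLC39A10 (8.93 to 11.1 TPM) and MT1F (3.97 to 13.8 TPM). SLC39A14, at 24.7 to 25.5 TPM, and MTF1, at 15.8 to 18.9 TPM, stood clear of their neighbours. In MLST8-KO SLC30A5 (55.4 to 62.5 TPM) moved ahead of SLC30A1 (48.6 to 55.2 TPM), the only change of order, with ranges that lay close but did not overlap. MT1X (591 to 812 TPM) and MT2A (219 to 343 TPM) no longer overlapped there.

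The wider families held further lower genes, read against the 15.7% of all genes called lower and 16.3% called higher. Of 8 zinc exporters of the SLC30 family tested, 4 were lower (SLC30A1 and SLC30A5 among them, counted above), 1 was higher and 3 were not called, and the median on the log2 scale was -0.24. Beside SLC30A1 and SLC30A5, SLC30A6, which pairs with SLC30A5 in the secretory pathway, was at 72.9 ± 1.39 CPM in WT and 61.3 ± 2.12 CPM in MLST8-KO, a log2 fold change of -0.25 (edgeR's adjusted p 0.0294). SLC30A7, a Golgi zinc transporter, was at 50.3 ± 8.72 and 35.7 ± 3.96 CPM, -0.49 on the log2 scale (edgeR's adjusted p 0.0195). SLC30A10, better known as a manganese exporter, was the exception among them and rose from 5 to 6 estimated counts per WT library to 13 to 21 per MLST8-KO library, a log2 fold change of 1.41 (edgeR's adjusted p 0.0218). These calls were lost in 8, 4 and 6 alternatives of 15, 15 and 12. Among exporters that did not pass the threshold, SLC30A9 was at 59.1 ± 3.66 TPM in WT and 59.5 ± 6.48 TPM in MLST8-KO. In CPM, the scale used for the called genes, it was at 97.3 ± 7.49 in WT and 91.5 ± 7.28 in MLST8-KO.

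**Figure D3:**
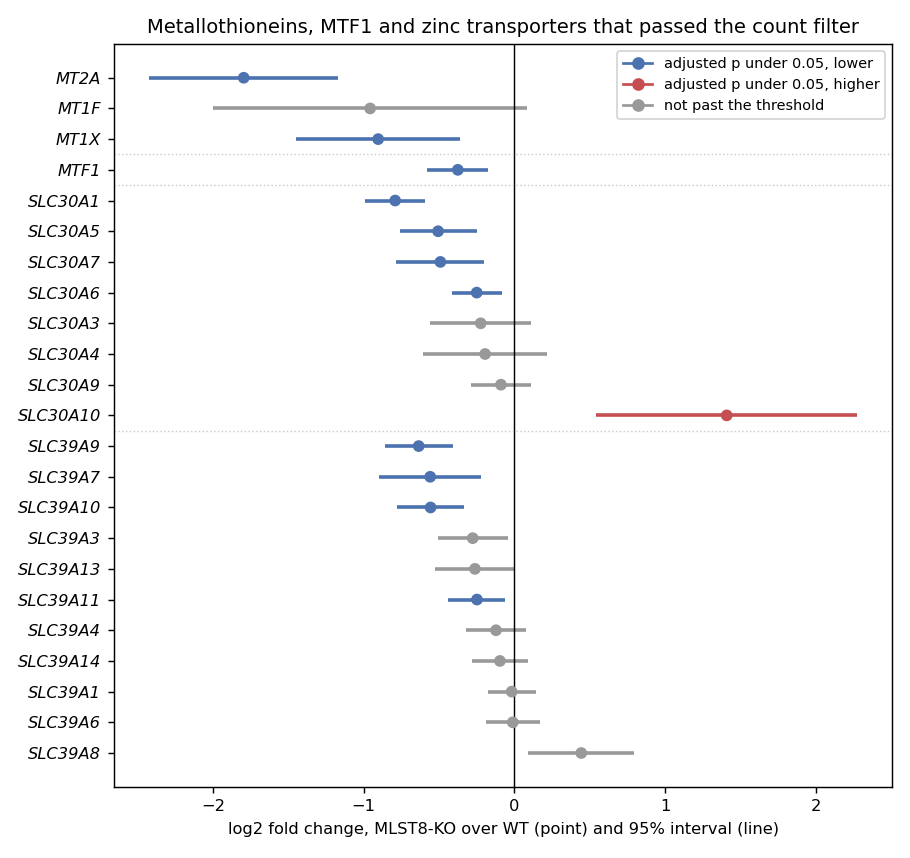
Log2 fold change of MLST8-KO over WT (points) with its 95% interval (lines) for the metallothioneins, MTF1 and the SLC30 and SLC39 genes tested, from edgeR. Blue marks genes called lower, red genes called higher and grey genes not past the threshold. MT2A lies farthest to the left at -1.80 and SLC30A10, at low counts, farthest to the right at 1.41.

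Of 11 importers of the SLC39 family tested, 4 were lower (with SLC39A10, counted above) and 7 were not called, with a median log2 fold change of -0.25. SLC39A9, a transporter of the Golgi and cell surface, was at 230 ± 31.4 CPM in WT and 148 ± 6.31 CPM in MLST8-KO (SD, n = 3 each), a log2 fold change of -0.64 with an adjusted p of 0.00359 by edgeR's quasi-likelihood test, and the call held in all 15 alternatives. SLC39A7, which releases zinc from the endoplasmic reticulum, was at 158 ± 40.9 and 107 ± 4.07 CPM, -0.56 on the log2 scale (edgeR's adjusted p 0.0207, lost in 5 of 15 alternatives). SLC39A11 was at 53.2 ± 4.19 and 44.8 ± 0.877 CPM, -0.25 on the log2 scale (edgeR's adjusted p 0.0478, lost in 12 of 15). Exons of SLC39A7 overlap RXRB, and those of SLC39A9 overlap ERH, each on the other strand.

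Importers that did not pass the threshold included the most abundant of the family. SLC39A1, a widely expressed plasma membrane importer, was at 195 ± 9.13 TPM in WT and 208 ± 10.2 TPM in MLST8-KO. SLC39A6 was at 92.8 ± 5.09 and 97.6 ± 9.87 TPM, and SLC39A4, the importer known from gut zinc uptake, at 83.9 ± 2.97 and 82.3 ± 1.22 TPM. SLC39A3 was at 55.3 ± 5.03 and 48.7 ± 3.38 TPM, and SLC39A13 at 32.7 ± 4.21 and 29.4 ± 2.18 TPM (SD, n = 3 each). Mean CPM in WT and MLST8-KO were 222 and 219 for SLC39A1, 178 and 177 for SLC39A6 and 25.9 and 23.8 for SLC39A4. They were 43.3 and 35.7 for SLC39A3 and 39.2 and 32.7 for SLC39A13. Of 6 zinc and MTF1 regulators tested, MTF1 alone was called lower and 5 were not called, with a median log2 fold change of 0.01.

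Other lists gave the surroundings of the zinc genes, and their counts too stand beside 15.7% lower and 16.3% higher over all genes. Of 13 copper genes tested 1 was higher and 1 lower, and their median lay at 0.02 on the log2 scale. ATP7A, the copper exporter, was higher (log2 fold change 0.97, edgeR's adjusted p 0.00666) and SLC31A1, the copper importer, lower (log2 fold change -0.76, edgeR's adjusted p 0.0129), though the call on SLC31A1 was lost in 3 of 15 alternatives. Of 16 iron genes 5 were lower and 1 was higher, around a median of -0.13. The largest differences were in HMOX1, which breaks down haem (log2 fold change -0.62, edgeR's adjusted p 0.00362), and NCOA4, which delivers ferritin to lysosomes (log2 fold change -0.46, edgeR's adjusted p 0.00380). Both held in all 15 alternatives, as did TFRC, while FTL was lost in 11, HMOX2 in 6 and STEAP3 in 4.

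Glucocorticoid receptor targets, to which MT2A is often added, went both ways. Of 10 tested 4 were lower and 2 higher, around a median of -0.25. TSC22D3 fell by 1.39 on the log2 scale (edgeR's adjusted p 0.00439), and FKBP5 rose by 0.95 (edgeR's adjusted p 0.0169), although both are standard targets of the receptor. FKBP5 was lost in 2 of 15 alternatives and TSC22D3 in none. Of 12 heat shock factor 1 targets 1 was lower and 2 were higher, around a median of 0.18. BAG3, a co-chaperone, had a log2 fold change of -0.58 (edgeR's adjusted p 0.00570) and HSPA4L, a chaperone, one of 0.78 (edgeR's adjusted p 0.0138), lost in 2 of 15 alternatives.

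**Figure D4:**
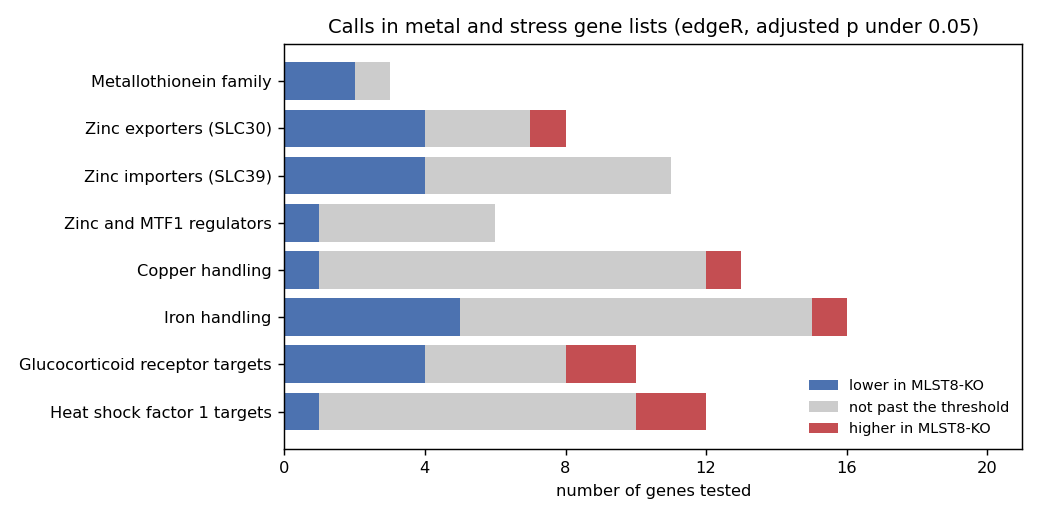
Number of genes tested (x axis) in 8 gene lists, divided into those called lower in MLST8-KO (blue), those not past the threshold (grey) and those called higher (red). Zinc importers show 4 lower of 11, copper genes 1 lower and 1 higher of 13.

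Genes most like 3 of the members in pattern were found by the root mean squared difference in centred log2(CPM + 1) over the 6 libraries, among 9381 candidates outside the zinc and metallothionein lists. Nearest to MT2A were HAS3, a hyaluronan synthase (difference 0.147), PRSS22, a serine protease (0.156), and ALDH1A3, a retinaldehyde dehydrogenase (0.212). HAS3 was at 537, 847 and 1119 CPM in WT and 255, 244 and 354 CPM in MLST8-KO, so it shared the spread within WT as well as the gap between groups. Nearest to MT1X were AREG, a ligand of the EGF receptor (0.111), ORMDL3, a regulator of sphingolipid synthesis (0.120), and NPRL2, a GATOR1 subunit (0.136). Nearest to SLC30A1 were LYN, a Src family kinase (0.0443), FAM53C (0.0479) and MOCOS, the molybdenum cofactor sulfurase (0.0498). These are descriptions over 6 libraries that share their groups and depth, and no test was made on them.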

How the data were processed

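Gene-level RNA-seq values of 3 WT and 3 MLST8-KO HCC2814 libraries (polyA selection, DNBSEQ) were used. Reads were cleaned by the authors, then mapped to the genome (GRCh38.p12) with HISAT and to gene sequences with Bowtie2. The counter, strand setting and tool versions are not given in the sources used here, so reads of overlapping or antisense genes cannot be told apart. The labels and the study's methods name different RNA extraction kits. The deposited estimated counts (12.4% of values not whole) were rounded, although whole counts had been planned for. The deposited TPM served for levels between genes and for an alternative, and the deposited FPKM were not used. The authors' comparison tables (fold changes, p and q values) were not used.

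Genes were filtered with filterByExpr, scaled by TMM and tested with edgeR 4.0.16 (R 4.3.3) by its quasi-likelihood test, with Benjamini-Hochberg adjustment over 12951 genes, a threshold of 0.05 and no block. The steps were tested on simulated data. CPM use TMM-scaled library sizes, ± gives the SD and intervals are 95%. Alternatives used DESeq2 1.42.0, limma 3.58.1 on log2(TPM + 1) or log2(TPM + 0.1), and other scaling and filters. Others were a fold of at least 2, a replicate block and leaving out each library. The fold of at least 2 was applied to counts of calls only and is not among the alternatives counted per gene. Tables were made with Python 3.11.15, pandas 2.3.3 and SciPy 1.17.1, and figures with matplotlib 3.10.9. There were 25 symbols turned into dates, which were restored by Entrez ID. Replicates of a group differed beyond sampling noise in each pair.

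All members were named, as was MLST8. Of other metallothionein, SLC30 and SLC39 genes, those called or at 10 TPM or more in a group were named, and the 2 largest calls of each other list. For MT2A, MT1X and SLC30A1 the 3 genes most like each were named, among genes at 10 CPM or more. The members and lists were chosen with earlier results of these data known. Coordinates are GENCODE 29 on GRCh38, and promoter sequences are from RefSeq on GRCh38.p14. The list genes MT1A, MT1B, MT1E, MT1H, MT1M, MT3, SLC30A8, SLC39A12 and HAMP and the markers SFTPC, CD3E and HBA1 were not analysed here.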

Additional observations from a re-analysis of the deposited data

How the results depend on the processing

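MT2A, SLC30A1 and SLC30A5 kept their direction and stayed past the threshold in all 15 alternatives, which do not include the fold of at least 2. MT1X, MTF1 and SLC39A10 kept their direction and were lost in 4, 4 and 1. With limma on log2(TPM + 1) without the filter the adjusted p was 0.0900 for MT1X and 0.0507 for SLC39A10. MTF1 was lost in each limma fit (adjusted p 0.0638 to 0.0989). SLC39A14 was not called in any alternative, and its sign turned in the limma fits, to 0.0094 on log2(TPM + 1), with or without the filter, and to 0.0095 on log2(TPM + 0.1). The count of members called lower, 6, became 1 with a fold of at least 2, 3 with limma without the filter and 4 to 7 when single libraries were left out, while the count called higher stayed at 0. The summed metallothionein level kept its direction throughout. Depth limited MT1F, at 9 to 32 estimated counts per library, and MT1G. The causes of these changes were not tested.

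Over all genes the 2116 calls higher and 2030 lower became 340 and 219 with a fold of at least 2. Calls lower were 1115 with limma on log2(TPM + 1), 1091 on log2(TPM + 0.1) and 821 without the filter. Leaving out single libraries gave 971 to 2692 calls higher and 850 to 2651 lower, with counts moved by over 1.5 times without WT replicate 2 (971 higher, 1044 lower), MLST8-KO replicate 1 (979 and 850) and MLST8-KO replicate 2 (1136 and 1091). The share of calls that were higher was 51.0% with TMM, 62.0% with upper quartile scaling and 70.7% to 71.6% in the limma fits.

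Replicates share numbers in the labels, but nothing ties equal numbers to a day or batch, and the correlations of their deviations from the group means, 0.105, 0.0565 and 0.140, were not all above 0.1. With the replicate number as a block, 2261 genes were higher and 2157 lower, 6 members were lower and none changed its call. MT2A then had a log2 fold change of -1.74. Each library correlated best with its own number, which is a hint from the data and not from the design.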
